A study of Mus musculus with 8 samples.

Results

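The 10 genes described here mark hepatic stellate cells and were followed in the liver transcriptome of mice given a herbal decoction. They are the rows of the deposited table named Pdgfra, Pdgfrb, Lrat, Reln, Dcn, Hgf, Ecm1, Des, Ngfr and Acta2, all 10 of which were present among the 24547 genes listed. The series concerns liver damage under Psoraleae Fructus, a herbal drug made from Psoralea fruit. ICR mice, an outbred strain, received the decoction at high dose (4 libraries) or were controls (4 libraries), and the protocol names saline beside the decoction. Dosing was intragastric and lasted 30 days. The labels give neither the dose in units of mass nor sex, age or date of collection. They do not tie each library to an animal of its own, and the p-values reflect library-to-library spread, which may be technical. Below, "decoction livers" and "control livers" stand for these libraries.

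Stellate cells lie between the sinusoidal endothelium and the hepatocytes and store retinoid as retinyl esters in lipid droplets. They make growth factors and matrix proteins for the lobule. After liver injury they can turn into contractile myofibroblasts, a change driven in part by PDGF and TGF-beta signals, with alpha smooth muscle actin as its usual marker. In whole liver their transcripts are a small part of the RNA, so a lower level of a marker cannot be told apart into fewer stellate cells and less RNA per cell. Some of the 10 genes also have other sources in liver, among them smooth muscle for Acta2 and Des and portal fibroblasts for Dcn and Pdgfrb. These are examples, and the cell source of the reads of Pdgfra or any other marker was not tested.

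Promoter sequences from RefSeq (GRCm38.p6) were available for 8 of the 10 genes. Printed here is the stretch of 250 bases before the RefSeq start of Pdgfra, the marker that passed the test below. Those of Lrat and Ecm1, whose group means lay closest together, are printed with it. RefSeq starts can differ from the GENCODE positions given below, and the Pdgfra window ends short of its GENCODE start at chr5:75152292. They are at chr5:75152001-75152250 on the plus strand, chr3:82903975-82904224 on the minus strand and chr3:95739570-95739819 on the minus strand, in this order, each written 5′ to 3′. Capitals mark matches on either strand to the GC box GGGCGG or the TATA box TATAAA, and no matches of the 2 motifs overlapped.
Pdgfra: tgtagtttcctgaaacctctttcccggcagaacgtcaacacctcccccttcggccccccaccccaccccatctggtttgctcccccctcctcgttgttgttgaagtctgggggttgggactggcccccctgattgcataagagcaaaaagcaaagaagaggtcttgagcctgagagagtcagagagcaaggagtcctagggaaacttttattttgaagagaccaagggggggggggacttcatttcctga
Lrat: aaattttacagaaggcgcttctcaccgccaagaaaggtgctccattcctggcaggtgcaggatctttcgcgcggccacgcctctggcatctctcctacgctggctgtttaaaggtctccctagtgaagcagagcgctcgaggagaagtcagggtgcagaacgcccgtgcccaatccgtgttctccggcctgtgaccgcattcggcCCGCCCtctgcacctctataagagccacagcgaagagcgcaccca
Ecm1: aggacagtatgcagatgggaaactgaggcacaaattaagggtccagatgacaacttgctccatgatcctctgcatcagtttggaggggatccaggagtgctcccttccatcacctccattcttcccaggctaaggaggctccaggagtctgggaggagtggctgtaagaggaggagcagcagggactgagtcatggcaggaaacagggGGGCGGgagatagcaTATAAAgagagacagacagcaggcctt
The Pdgfra window held neither motif, the Lrat window a GC box and the Ecm1 window both. Among the 8 genes, which had 9 windows, 5 genes had a GC box and 1 a TATA box in a window. Counted by window rather than by gene, 32.7% and 12.4% of all 32851 RefSeq windows of this length had them.

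Library totals ran from 16398729 to 20159132 counts in decoction livers and from 15864399 to 19153845 in control livers. Hepatocyte markers were abundant in every library, albumin (Alb) standing at 117620 ± 8534 CPM (counts relative to library totals scaled by TMM factors) in decoction livers and 116450 ± 21782 in control livers (SD, n = 4 each). A total of 12861 genes passed the filter on low counts, and all 10 stellate markers were among them. In edgeR's quasi-likelihood test 9.21% of tested genes had an adjusted p (Benjamini-Hochberg) under 0.05 and were called, 3.75% as lower and 5.46% as higher in decoction livers.

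Of the 10 stellate markers, Pdgfra fell in decoction livers, to 0.452 of its control mean, and the other 9 did not pass the test. No marker was called higher. The log2 fold change was negative for 8 of the 10, with a median of -0.35 against -0.037 over all tested genes. In CPM the groups did not overlap for Pdgfra, Pdgfrb and Des, each lower in every decoction liver. This is 3 of 10 genes, beside 8.70% of all tested genes that lay apart in this direction. Des did not lie apart in FPKM (reads scaled to gene length and library total), where decoction 2 (1.04) lay above control 1 (0.966). No marker lay apart in the other direction, as 10.2% of tested genes did. With control 1 left out Pdgfrb was also called lower, and with control 4 left out Hgf was, so 2 markers were called in either case.

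**Figure D1:**
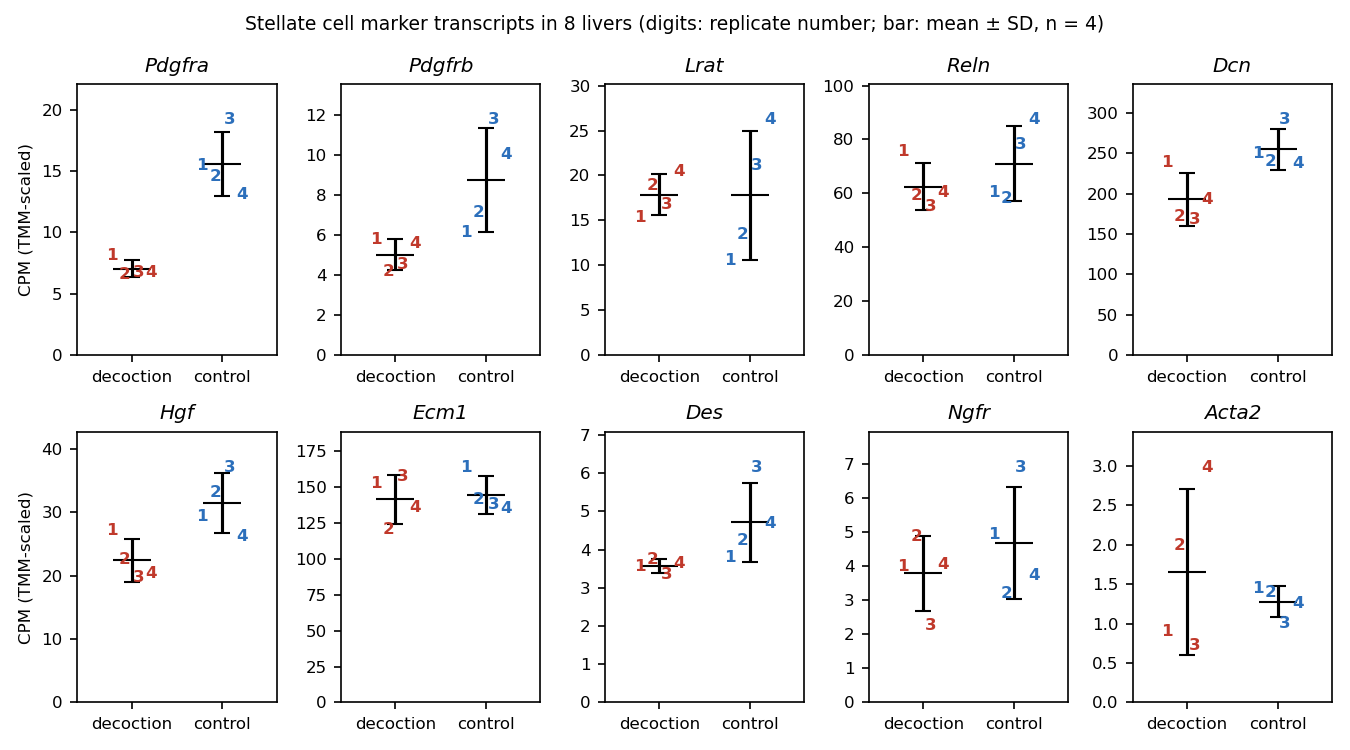
CPM of each marker in the 4 decoction and 4 control libraries (vertical axes from 0, one scale per gene). Digits are replicate numbers and bars the mean ± SD; for Pdgfra the decoction values of 6.57 to 8.10 all lie under the control values of 13.1 to 19.2.

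The PDGF receptors are tyrosine kinases through which stellate cells receive signals to divide and migrate. Pdgfra (chr5:75152292-75198215 in GRCm38, the build of all positions here, plus strand), the alpha receptor, stood at 8.10, 6.57, 6.74 and 6.75 CPM in decoction livers 1 to 4, against 15.4, 14.5, 19.2 and 13.1 CPM in control livers 1 to 4. All decoction livers lay well below all controls. The means were 7.04 ± 0.71 CPM in decoction livers and 15.6 ± 2.59 in control livers (SD, n = 4 each), a log2 fold change of -1.14 (SE 0.16, 95% interval -1.50 to -0.79, edgeR adjusted p = 0.00666). It was called in each of the 24 alternative settings, with log2 fold changes from -1.29 to -0.60 and adjusted p from 8.68e-08 to 0.0435, the smallest change being on the log2(FPKM + 1) scale. The counts behind it were 111 to 162 reads in decoction livers and 250 to 305 in controls. Its exons overlap Gm42802 on the opposite strand, whose reads cannot be told apart from its own.

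Pdgfrb (chr18:61045150-61085061, plus strand), the beta receptor, which binds PDGF-B and marks pericytes and stellate cells alike, stood at 5.80, 4.16, 4.55 and 5.55 CPM in decoction livers, against 6.13, 7.14, 11.76 and 10.02 CPM in control livers. The groups did not overlap, though decoction 1 and control 1 lay close together and controls 3 and 4 stood high. The log2 fold change of -0.80 (SE 0.23, 95% interval -1.32 to -0.28) missed the threshold (edgeR adjusted p = 0.0596). It was called in 3 of 24 alternatives, namely the DESeq2 Wald test, limma-voom and the fit without control 1.

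None of the 4 PDGF ligand genes was called, and each had a negative log2 fold change (median -0.32). Pdgfc, a ligand of the alpha receptor, stood at 4.37 ± 1.42 CPM in decoction livers and 5.37 ± 1.598 in control livers, with overlapping values. Pdgfa, another ligand of that receptor, stood at 2.87 ± 0.20 CPM in decoction livers and 3.65 ± 0.35 in control livers. Its groups did not overlap in CPM, beside 8.70% of all tested genes that lay apart in this direction. In FPKM they did overlap, with decoction 2 at 1.036 and control 1 at 1.033. The log2 fold change of -0.34 did not pass (edgeR adjusted p = 0.278).

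**Figure D2:**
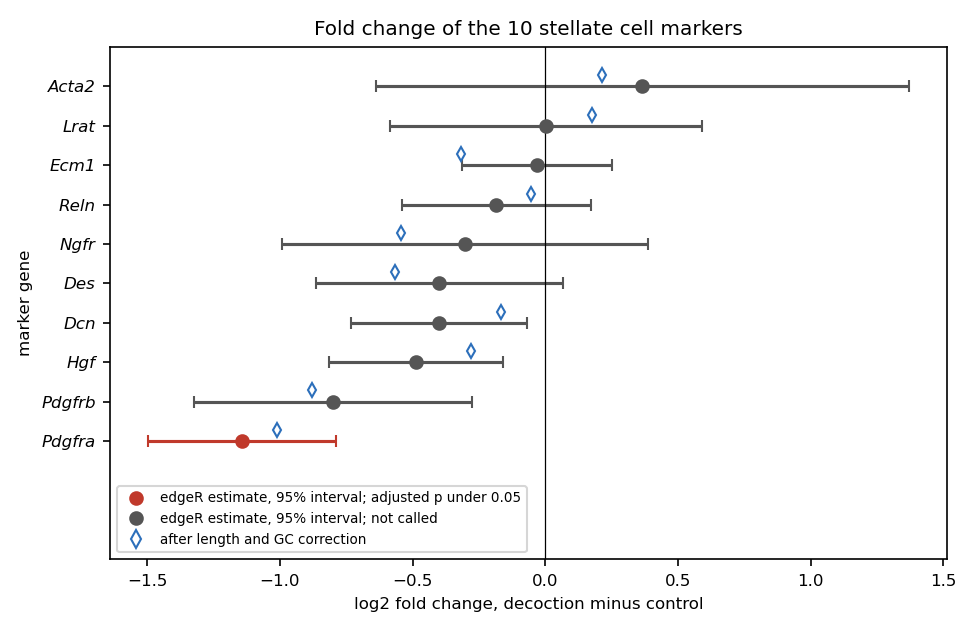
Log2 fold change of each marker, decoction minus control, with its 95% interval from edgeR (circles) and the value after correction for gene length and GC content (diamonds). Pdgfra, at -1.14, is the one called, and the intervals of Pdgfrb, Hgf and Dcn also lie below 0.

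Lrat (chr3:82892579-82903973, minus strand) makes the retinyl esters that stellate cells store. It stood at 15.3, 18.8, 16.8 and 20.5 CPM in decoction livers, against 10.5, 13.4, 21.1 and 26.2 CPM in control livers. The decoction livers all lay inside the range of the controls, with a coefficient of variation of 12.7% in decoction livers and 40.2% in control livers. Its log2 fold change was 0.0032 with a 95% interval of -0.58 to 0.59, which leaves room for a change of about that size in either direction, and its sign turned in some alternatives. Of 8 genes of retinoid uptake and storage, 1 fell and none rose (median 0.13), beside 3.75% and 5.46% of all tested genes. The one was Stra6l, a liver receptor for the retinol carrier RBP4 in mice, at 105.7, 109.0, 106.9 and 137.9 CPM in decoction livers, against 148.8, 149.4, 203.2 and 170.6 CPM in control livers (log2 fold change -0.55, SE 0.15, edgeR adjusted p = 0.045). That call was kept in 2 of 8 leave-one-out fits, those without control 1 or control 4, and was lost after the length and GC correction, where the log2 fold change was -0.40.

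Among the secreted products, Dcn (chr10:97479609-97518143, plus strand), the collagen-binding proteoglycan decorin, stood at 239.3, 171.5, 167.7 and 193.4 CPM in decoction livers, against 250.1, 240.4, 291.6 and 237.9 CPM in control livers. Decoction 1 lay within the control range and the other decoction livers below it. Dcn had a log2 fold change of -0.40 (SE 0.15, 95% interval -0.73 to -0.070, edgeR adjusted p = 0.112), or -0.17 after the length and GC correction. limma-voom called it (adjusted p = 0.0451).

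Hgf (chr5:16553495-16620152, plus strand), hepatocyte growth factor, stood at 27.1, 22.6, 19.7 and 20.3 CPM in decoction livers, against 29.3, 33.1, 37.2 and 26.1 CPM in control livers. Decoction 1 and control 4 overlapped and the other libraries lay apart. Hgf had a log2 fold change of -0.49 (SE 0.15, 95% interval -0.82 to -0.16, edgeR adjusted p = 0.0663), and -0.28 after the length and GC correction. It was called in 3 of 24 alternatives, the DESeq2 Wald test, limma-voom and the fit without control 4. The exons of Hgf share 484 bases with Gm43489 on the same strand, which had 28 reads over the 8 libraries.

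Of 4 tested genes that activate, inhibit or receive HGF, Spint2 rose and none fell, beside 5.46% and 3.75% of all tested genes. In none of the 4 did the groups overlap, as was the case for 18.9% of all tested genes: decoction livers were higher for Spint2 and the activating proteases Hgfac and Hpn, and lower for Met. Hgfac stood at 201.1 ± 26.2 CPM in decoction livers and 152.5 ± 14.6 in control livers, and Hpn at 410.7 ± 24.2 CPM in decoction livers and 304.0 ± 44.4 in control livers; neither was called (edgeR adjusted p = 0.0908 and 0.0841). Spint2 encodes an inhibitor of the serine proteases that activate HGF, and stood at 78.3, 76.4, 87.4 and 70.3 CPM in decoction livers, against 40.7, 42.1, 32.9 and 58.4 CPM in control livers (log2 fold change 0.84, SE 0.17, edgeR adjusted p = 0.0192). Its call was kept in 7 of 8 leave-one-out fits and lost without decoction 3 (adjusted p = 0.0708). Met, the HGF receptor, averaged 79.4 ± 6.06 CPM in decoction livers against 98.3 ± 12.8 in control livers and was not called (edgeR adjusted p = 0.131). Met, Hgfac and Hpn were picked for mention with their values known.

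Ecm1 (chr3:95734147-95739569, minus strand), a secreted matrix protein that restrains activation of latent TGF-beta in mouse liver, stood at 152.3, 120.3, 157.7 and 135.5 CPM in decoction livers, against 164.0, 141.2, 137.6 and 135.4 CPM in control livers. The groups overlapped widely. The log2 fold change was -0.031 with a 95% interval of -0.32 to 0.25. After the length and GC correction it was -0.32 (edgeR adjusted p = 0.144).

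Reln (chr5:21884454-22344702, minus strand), the glycoprotein reelin, stood at 75.4, 59.2, 55.2 and 60.1 CPM in decoction livers, against 60.4, 58.3, 78.1 and 87.3 CPM in control livers. Control livers 1 and 2 lay among the decoction livers. The exons of Reln share 246 bases with the antisense gene Gm10475. Reln had a log2 fold change of -0.18 (SE 0.16, 95% interval -0.54 to 0.17, edgeR adjusted p = 0.474), or -0.067 without control 4. Neither tested gene of its receptors and adaptor was called. Vldlr, a reelin and lipoprotein receptor, stood at 45.5 ± 7.52 CPM in decoction livers and 20.3 ± 11.7 in control livers (log2 fold change 1.16, edgeR adjusted p = 0.0893), and passed without control 4 (1.62, adjusted p = 0.00864). Dab1, the adaptor, stood at 1.13 ± 0.77 CPM in decoction livers and 0.62 ± 0.34 in control livers.

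The cytoskeletal markers were among the lowest of the 10 per length. Des (chr1:75360329-75368579, plus strand), the intermediate filament desmin, stood at 3.55, 3.75, 3.34 and 3.64 CPM in decoction livers, against 3.79, 4.24, 6.16 and 4.67 CPM in control livers. Decoction 2 and control 1 nearly met. The groups did not overlap in CPM, but in FPKM decoction 2 (1.04) lay above control 1 (0.966). Des had a log2 fold change of -0.40 (SE 0.21, 95% interval -0.86 to 0.067, edgeR adjusted p = 0.235). Its exons share 220 bases with the antisense gene Gm15179.

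Acta2 (chr19:34241090-34255590, minus strand), alpha smooth muscle actin, stood at 0.90, 1.99, 0.73 and 2.99 CPM in decoction livers, against 1.44, 1.40, 1.01 and 1.26 CPM in control livers. Decoction livers 2 and 4 lay above all controls and decoction livers 1 and 3 below all of them, giving a coefficient of variation of 63.6% in decoction livers and 15.4% in control livers. These values rest on 12 to 50 reads. For Acta2 the log2 fold change was 0.37 (SE 0.45, 95% interval -0.64 to 1.37, edgeR adjusted p = 0.624) and became -0.080 without decoction 4.

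Of 15 genes of myofibroblast activation 12 were tested, and none was called in either direction (median log2 fold change -0.13, 4 positive and 8 negative). Timp1, Lox and Tagln, named here as untested, failed the filter on low counts. Fn1, fibronectin, which hepatocytes also secrete, stood at 1511 ± 159 CPM in decoction livers and 1570 ± 230 in control livers. Vim, the intermediate filament vimentin, stood at 19.4 ± 7.52 CPM in decoction livers and 42.9 ± 38.4 in control livers. That gap rests largely on control 2, at 99.1 CPM beside 16.1 to 35.5 CPM in the other controls; the log2 fold change was -1.15 with all libraries and -0.31 without control 2, and was not called in either fit. Of 11 tested genes of TGF-beta signalling Smad7, an inhibitor of the pathway, rose, beside 5.46% of all tested genes called higher. It stood at 25.2, 24.99, 23.1 and 12.3 CPM in decoction livers, against 10.6, 10.8, 7.61 and 10.8 CPM in control livers (log2 fold change 1.10, SE 0.23, edgeR adjusted p = 0.0223). Decoction 4 lay close to the controls. The call was kept in 4 of 8 leave-one-out fits, and lost without decoction 1, 2 or 3 or control 3 and after the length and GC correction (0.96).

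Ngfr (chr11:95568818-95587735, minus strand), the p75 neurotrophin receptor, stood at 3.9999, 4.87, 2.25 and 4.06 CPM in decoction livers, against 4.93, 3.21, 6.92 and 3.73 CPM in control livers. The ranges crossed, with decoction 3 lowest and control 3 highest. The log2 fold change was -0.30 (SE 0.31, 95% interval -0.99 to 0.39, edgeR adjusted p = 0.547). It was -0.057 without control 3 and -0.12 without decoction 3. Of 4 tested neurotrophin and receptor genes Ntrk2, the receptor of BDNF, fell, beside 3.75% of all tested genes called lower. It had 6, 4, 2 and 4 reads in decoction livers and 10, 19, 47 and 81 in control livers (log2 fold change -3.24, SE 0.67, edgeR adjusted p = 0.0216). Its call was kept in 3 of 8 leave-one-out fits and lost without any 1 decoction liver or control 3.

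Among 16 further stellate genes, 15 of them tested, Prelp, a leucine-rich matrix protein, fell and the other tested ones were not called (median log2 fold change -0.043). Of all tested genes 3.75% were called lower. Prelp stood at 33.2, 30.6, 24.8 and 32.7 CPM in decoction livers, against 46.3, 39.4, 49.7 and 43.0 CPM in control livers (log2 fold change -0.56, SE 0.13, edgeR adjusted p = 0.0286). The groups did not overlap. Its call was kept in 3 of 8 leave-one-out fits and lost without any 1 decoction liver or control 3.

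Pdgfra was then divided by each of the other 9 markers within a library, which removes the scaling between libraries. Since Pdgfra was known to be lower, this describes how far it departed from the others and gives no independent support for its fall. Relative to Dcn the log2 ratio was -4.88, -4.70, -4.63 and -4.83 in decoction livers, against -4.01, -4.05, -3.92 and -4.18 in control livers, a difference of -0.72. Against 6 of the 9 (Reln, Dcn, Hgf, Ecm1, Des and Acta2) the groups did not overlap (exact permutation test, two-sided, p = 0.0286, the minimum over 70 assignments, and 0.0429 adjusted over the 9 ratios), with differences from -1.29 for Acta2 to -0.65 for Hgf. The ratio to Pdgfrb, the other PDGF receptor, differed by -0.37 and did not pass (exact permutation p = 0.171), and those to Lrat and Ngfr did not either (exact permutation p = 0.0571 for each). Passing needs at least 6 ratios at the smallest p. The count was 6 without decoction 3 and 7 without control 4, and 0 with any other library left out.

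**Figure D3:**
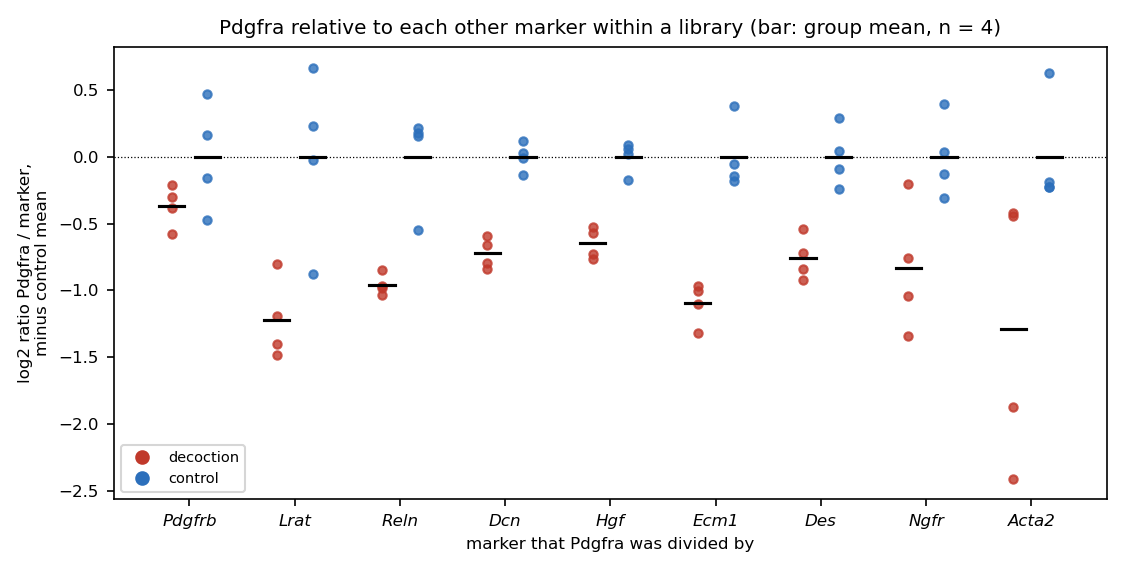
Log2 ratio of Pdgfra counts to each other marker in every library, minus the mean ratio of the control livers. Bars are group means (n = 4); the decoction points lie below all control points for Reln, Dcn, Hgf, Ecm1, Des and Acta2, and overlap them for Pdgfrb, Lrat and Ngfr.

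The decoction livers were not uniform over the other markers. Decoction 1 lay closest to the controls for Dcn, Hgf and Pdgfrb and had 75.4 CPM of Reln, above control livers 1 and 2. Decoction 3 had the lowest Dcn, Hgf, Reln, Des, Ngfr and Acta2 of all 8 libraries. Its median deviation from the control mean was -0.63 on the log2(CPM + 0.1) scale, against -0.18 to -0.28 in the other decoction livers. Control 3 stood highest in Pdgfra, Pdgfrb, Dcn, Hgf, Des and Ngfr, and its median deviation was 0.28, against -0.11 to -0.048 in the other controls. Without decoction 3 the median log2 fold change of the 10 markers was -0.23, and without control 3 it was -0.19.

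**Figure D4:**
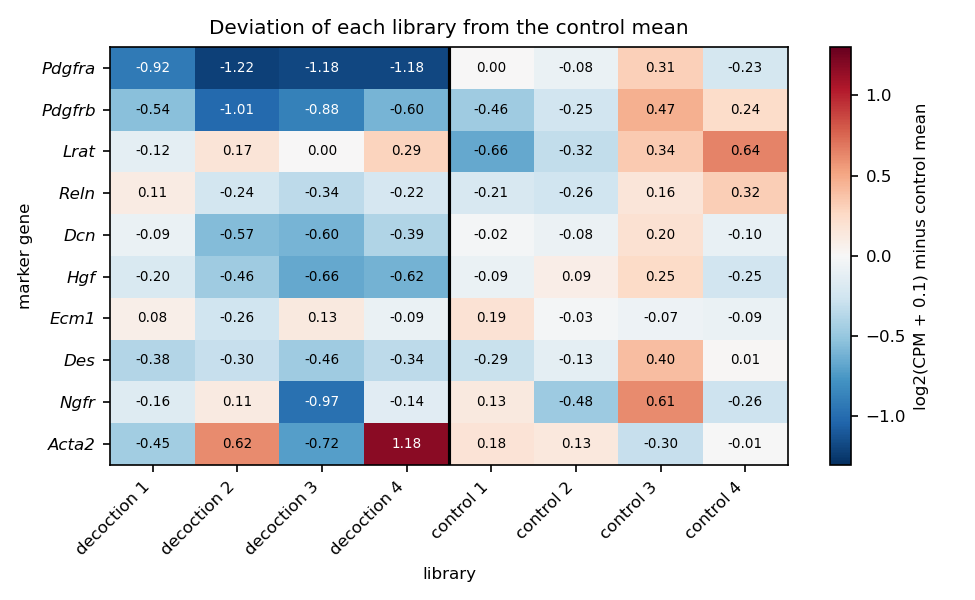
Log2(CPM + 0.1) of each marker in each library minus the mean of the 4 control libraries (blue lower, red higher). Pdgfra is between -1.22 and -0.92 in every decoction library, while Acta2 runs from -0.72 to 1.18 among them.

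Levels per length, as FPKM (reads scaled to gene length and library total), put Ecm1 first and Dcn second in both groups. Ecm1 averaged 55.1 ± 4.96 FPKM in decoction livers and 58.1 ± 4.68 in control livers, and Dcn 32.6 ± 5.84 in decoction livers and 44.3 ± 4.47 in control livers (SD, n = 4 each). Within either group the ranges of these genes did not overlap each other or those of the next. Lrat, Hgf and Reln followed between 2.60 and 3.29 FPKM in decoction livers and between 3.03 and 4.45 in control livers, and neighbours among them overlapped. The other 5 averaged 1.62 FPKM or less. In decoction livers Pdgfra was last of the 10 at 0.69 ± 0.076 FPKM, its range overlapping that of Pdgfrb at 0.90 ± 0.14. In control livers it was the seventh at 1.57 ± 0.26 FPKM, overlapping its neighbours Pdgfrb (1.62 ± 0.47) and Ngfr (1.37 ± 0.45), and Acta2 was last at 0.73 ± 0.13.

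Over the 8 libraries, Pdgfra was set beside 8982 candidate genes of at least 5 CPM on average. Predicted genes with Gm or Rik names were left out. The candidates whose centred log2 CPM lay closest to those of Pdgfra were Rnf125, Hivep2, Taf7, Helb and Pnp. Their root mean square differences from Pdgfra were 0.14 to 0.18 on the log2 scale, against a median of 0.64 over the candidates. Rnf125, a ubiquitin ligase gene, stood at 32.6 ± 4.05 CPM in decoction livers and 73.0 ± 12.4 in control livers. None of the 5 is on a list of stellate genes used here. Among the other stellate markers, taken without the limit of 5 CPM, Pdgfrb was closest at 0.32 and Acta2 farthest at 0.90. These points share libraries and scaling factors, and the likeness is a description.

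Markers of neighbouring cells were set beside these results. Of all 97 tested genes on the 15 other lists 9 were called (2 higher and 7 lower), or 9.28%, near the 9.21% of all tested genes. Left-out libraries moved this count to 1 without decoction 1, 2 without decoction 2, 0 without decoction 3, 2 without decoction 4, 4 without control 2, 1 without control 3 and 16 without control 4. The 8 sinusoidal endothelial genes had a median log2 fold change of -0.33, close to that of the stellate markers, and Pecam1 and Tek fell. Pecam1, an adhesion molecule of endothelium, stood at 22.4 ± 5.45 CPM in decoction livers and 40.5 ± 7.13 in control livers (edgeR adjusted p = 0.0273), and was kept in 3 of 8 leave-one-out fits, lost without decoction 1, 3 or 4 or control 2 or 3. Tek, an angiopoietin receptor, stood at 14.1 ± 2.87 CPM in decoction livers and 24.8 ± 7.49 in control livers (edgeR adjusted p = 0.0499), a call kept only in the fit without control 4 among those 8. After the length and GC correction its log2 fold change was -0.75, against -0.81 without, and missed the threshold (adjusted p = 0.0853). Over all 24 alternatives it ran from -1.02 to -0.59.

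The 7 Kupffer cell genes had a median of -1.02, and Timd4 and Adgre1, surface proteins of liver macrophages, fell, beside 3.75% of all tested genes called lower. Timd4 stood at 9.78 ± 2.70 CPM in decoction livers and 27.4 ± 15.1 in control livers (edgeR adjusted p = 0.0439). Adgre1 stood at 20.1 ± 6.53 CPM in decoction livers and 44.5 ± 15.5 in control livers (edgeR adjusted p = 0.0473). The groups overlapped for Adgre1, as decoction 2 (28.6 CPM) lay above control 4 (26.98 CPM). Among 8 leave-one-out fits both calls were kept only without control 4, and both missed the threshold after the length and GC correction, at log2 fold changes of -1.50 for Timd4 and -1.13 for Adgre1, against -1.48 and -1.14 without the correction. Over all 24 alternatives Timd4 ran from -1.69 to -1.03 and Adgre1 from -1.34 to -0.92. Without control 2 the log2 fold change of Timd4 was -1.03, against -1.48 with all libraries. The summed FPKM of the Kupffer list ran from 118.6 to 263.6 in decoction livers and from 194.4 to 526.1 in control livers. For the endothelial list it ran from 47.0 to 78.0 in decoction livers and from 72.8 to 92.1 in control livers. For the 10 stellate markers it ran from 94.8 to 114.8 in decoction livers and from 112.3 to 125.6 in control livers, most of it from Ecm1 and Dcn. Without these genes the summed CPM of the other 8 markers was 140.2, 122.0, 109.3 and 123.9 in decoction livers, against 131.96, 135.3, 181.4 and 172.4 in control livers, with decoction 1 above control livers 1 and 2. The part of these cell types in the lower Pdgfra was not tested.

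No gene was called among the portal fibroblast (7 tested of 8), smooth muscle (3 of 6), mesothelial (1 of 5), cholangiocyte (3 of 6) or hepatocyte (8 of 8) lists. The untested genes failed the filter on low counts. Portal fibroblast genes summed to 15.01 to 23.2 FPKM in decoction livers and 9.27 to 23.6 in control livers. Most of this sum came from Gas6 in every library, so it says little about the other genes of that list. Smooth muscle genes summed to 0.66 to 1.89 FPKM in decoction livers and 0.87 to 1.25 in control livers. Of the smooth muscle list, Smtn, smoothelin, stood at 2.41 ± 0.96 CPM in decoction livers and 1.91 ± 0.65 in control livers, and Myh11, a myosin heavy chain, at 2.07 ± 0.72 CPM in decoction livers and 1.31 ± 0.25 in control livers. Gas6, a growth factor of portal fibroblasts, stood at 41.3 ± 8.67 CPM in decoction livers and 34.2 ± 15.7 in control livers, and Entpd2, an ectonucleotidase, at 1.95 ± 0.33 in decoction livers and 1.50 ± 0.61 in control livers. Gpm6a of mesothelium stood at 1.42 ± 0.81 CPM in decoction livers and 0.86 ± 0.38 in control livers. The 5 mesothelial genes summed to 0.19 to 2.40 FPKM in decoction livers and 0.26 to 0.53 in control livers. The sum of 2.40 was that of decoction 2, which had 43 reads of Upk3b. The other decoction livers had 2 to 5 reads of it and control livers 1 to 10. Upk3b was picked for mention with its values known. Of cholangiocytes, Spp1 stood at 16.3 ± 8.19 CPM in decoction livers and 19.2 ± 3.65 in control livers and Sox9 at 2.53 ± 0.44 in decoction livers and 4.01 ± 2.14 in control livers. Among hepatocyte genes Apoa1, the main protein of HDL, stood at 7070 ± 2841 CPM in decoction livers and 6356 ± 1850 in control livers.

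**Figure D5:**
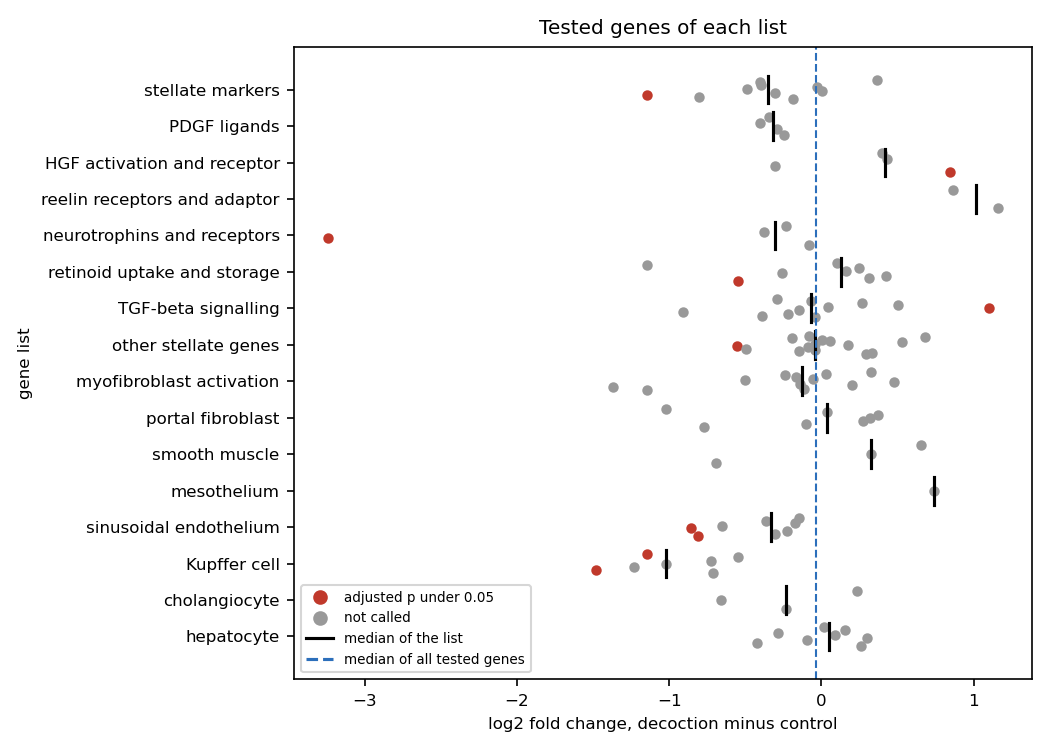
Log2 fold change, decoction minus control, of every tested gene in the stellate marker list and the 15 other lists. Red points passed the test, black bars are list medians and the dashed line is the median of all tested genes at -0.037; the stellate marker median lies at -0.35 and the Kupffer cell median at -1.02.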

How the data were processed

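RNA was sequenced from whole liver tissue of ICR mice. Per the labels' protocols, Trizol was used for extraction and poly-T beads for mRNA selection; the NEBNext Ultra kit named there does not mark the strand. The deposited table gives raw read counts per gene, and FPKM. The submitters' processing notes name GRCm38 with the tools DESeq2 1.32.0, HTSeq 0.13.5 and HISAT2. Roles of these tools, annotation release and strand setting were not given in the sources used here. As checked on the values, the deposited FPKM equal counts over gene length and library total.

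Counts were tested with edgeR 4.0.16 in R 4.3.3. Genes were filtered with filterByExpr (minimum count 10, minimum total 15), scaled with TMM factors and compared by quasi-likelihood F tests (robust dispersion), group being the only term. P-values were adjusted by Benjamini-Hochberg over all 12861 tested genes and called under 0.05. The step was tested on simulated data. CPM are scaled by TMM factors, and standard errors come from the F statistic. Ratios of Pdgfra to the other markers (0.5 added to each count) were compared by an exact permutation test. Alternatives were other scalings, filters, tools (DESeq2 1.42.0, limma 3.58.1), FPKM, a replicate block, correction for length and GC content of genes, a stricter threshold and leaving libraries out.

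The markers and lists were chosen with earlier results of these data known. All 10 markers are named. From each other list the called genes are named, up to 4 by smallest adjusted p, or, where none was called, the 2 most abundant tested ones. Genes named beyond this rule are marked as picked where they appear. Positions are from GENCODE on GRCm38, which matched 24540 of 24547 gene identifiers. Ccn2 was found under the older symbol Ctgf.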

Additional observations from a re-analysis of the deposited data

Results flagged for a closer look

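In 5 of the 68 groups of 4 libraries examined, 1 library lay far from the other 3 by Dixon's test, which sets the gap to the nearest neighbour against the whole range. Chance flags about 1 in 20 groups. Pdgfra in decoction 1 stood at 8.10 CPM, against 6.57 to 6.75 in the other decoction livers, and without that library its log2 fold change was -1.20. Pdgfc in decoction 1 stood at 6.4999 CPM, against 3.58 to 3.75 in the other decoction livers. Stra6l in decoction 4 stood at 137.9 CPM, against 105.7 to 109.0. Smad7 in decoction 4 stood at 12.3 CPM, against 23.1 to 25.2 in the other decoction livers, and in control 3 Smad7 had 7.61 CPM, where control livers 1, 2 and 4 had 10.6 to 10.8.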

How the results depend on the processing

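Pdgfra kept its call in all 24 alternatives, and no marker was called higher in any of them. With single libraries left out, the genes called ranged from 183 to 2330 (1184 with all 8), the markers called lower from 1 to 2, the other listed genes called from 0 to 16 (9 with all 8), and the ratios of Pdgfra that passed from 0 to 7 (6 with all 8). The DESeq2 Wald test called 2213 genes, 3 markers and 17 other listed genes, and limma-voom 2126, 4 and 14. The length and GC correction left 535 genes and 4 other listed ones, and with the replicate block 221 and 0. At an adjusted p under 0.01 there were 145 and 0, and limma on log2(FPKM + 1) without a filter gave 322 and 0. With its filter, limma called 5 other listed genes at either pseudocount. The causes were not tested. The log2 fold change of Lrat, near 0, became -0.037 with library size alone, -0.017 with upper quartile factors and -0.00028 with the stricter filter, and ran from -0.18 to 0.25 with libraries left out. That of Ecm1 was -0.32 after the length and GC correction and -0.33 with the replicate block added to it, and ran from -0.085 to 0.057 with libraries left out. That of Ngfr ran from -0.44 to -0.057 and that of Acta2 from -0.080 to 0.61 with libraries left out. Deviations of same-numbered libraries correlated at -0.012 to 0.18, over 0.1 in 1 of 4 numbers. Those numbered 1 and 2 correlated best with their own, the others did not. The labels do not say whether the numbers pair libraries, and correlations over so few libraries cannot settle it. The replicate block gave 944 genes and kept the Pdgfra call (adjusted p = 0.0202). Permuting within same-numbered libraries passed 0 of the 9 ratios, and 16 assignments are too few to pass. Low reads limit Acta2 and Ntrk2, among others.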
